A study of Allium sativum with 42 samples.

Results

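Transcript levels of garlic bulbs (Allium sativum, cultivar Ershuizao) were compared between 222 and 217 days of age, a step of 5 days near the end of bulb growth. Genes with at least 1 FPKM (fragments scaled to transcript length and to the mapped fragments of the library) in at least 3 of the 6 libraries were compared, which gave 27304 of the 58219 gene IDs in the deposited table. The study measured 42 RNA-seq libraries in 14 groups of 3, namely bulbs at 8 ages from 192 to 227 days and 6 other tissues. By their labels, the leaf, pseudostem, garlic sprout and root samples were 212 days old, the flower samples 217 days and the bud samples 10 days. Bulbs at 222 days gave 3 libraries and bulbs at 217 days gave 3. All were field-grown plants of 1 cultivar without a treatment or a genotype contrast, so age was the single labelled difference. Whether the 3 libraries of an age are separate plants is not in the labels, so the p-values cover the spread among these libraries alone, possibly a technical one. The labels do not say either which part of a bulb was taken.

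A garlic bulb is a cluster of cloves, each made largely of a swollen storage leaf around a small shoot bud and wrapped in dry protective leaves. During growth the storage leaf fills with fructans and with the sulfur compounds that give garlic its odour, and the ripening bulb then enters dormancy while the leaves die back. The pseudostem is the false stem made of rolled leaf sheaths above the bulb, and garlic inflorescences commonly bear small aerial bulbs among the flowers. In whole tissue, a change in the share of a cell type and a change in RNA per cell cannot be told apart.

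In every 222-day library the most abundant genes held a larger share of the transcript pool than in any 217-day library. Of the 10 genes that gained the most share, 8 were at least 8 times as abundant in flower as in each of the 5 other tissues. With FPKM as deposited more genes were lower at 222 days (880) than were higher (317). This balance turned round under median-of-ratios scaling (345 lower and 389 higher) and quantile normalization (425 and 492). Rescaling to TPM (each library brought to the same summed FPKM) gave 1210 lower and 284 higher genes. A fit of the 6 libraries alone left the log2 differences unchanged and called only 2 lower and 11 higher genes. Means of at least 1000 FPKM in the age of greater abundance were reached by 20 higher and 13 lower genes. Asa6G07840.1 averaged 2373 ± 1329 FPKM at 222 days and 74.5 ± 35.6 FPKM at 217 days (SD, n = 3 each). Asa1G03611.1 averaged 2.73 ± 2.32 FPKM at 222 days and 168 ± 155 FPKM at 217 days. What these genes encode is not given in the table, which lists IDs without names.

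Depth, as whole reads recovered from the FPKM values, was 18.7, 22.6 and 21.0 M reads at 222 days and 21.8, 12.8 and 22.2 M at 217 days. The shallowest of the 6 was replicate 2 at 217 days. The replicates of each age were not alike. Correlations of log2(FPKM + 1) across genes were 0.934 to 0.957 within 222 days, 0.930 to 0.945 within 217 days and 0.892 to 0.947 between the ages, so some libraries were as near to the other age as to their own. Replicate 2 at 222 days correlated at 0.947 with replicate 1 at 217 days. The median over genes of the SD on that scale was 0.28 at 222 days and 0.33 at 217 days, against 0.16 to 0.18 at 192, 197, 202 and 212 days, 0.29 at 207 days and 0.39 at 227 days. Replicate 3 at 217 days stood apart in its most abundant transcripts, and results that rest on it are given with its own value.

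The shape of the pool was compared first, by the part of summed FPKM found in the top 100 genes of each library. That share was 47.1%, 39.8% and 46.3% in replicates 1 to 3 at 222 days and 22.1%, 21.3% and 34.5% at 217 days. All 222-day libraries were above all 217-day libraries. The means were 44.4% ± 4.03 at 222 days and 25.97% ± 7.36 at 217 days (SD, n = 3 each), a difference of 18.4 percentage points. An exact 2-sided permutation test gave p = 0.1, the smallest that 3 libraries against 3 allow. Without replicate 3 at 217 days the difference was 22.7 points. The same order held for the top 50 genes (difference 19.4 points) and the top 500 (13.4 points), and with the most abundant gene of each library set aside (16.6 points).

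The gain was concentrated in a few genes. Between the mean profiles of the ages, 11724 genes gained share and the gains added up to 27.05 points. The single largest gainer took 15.0% of that sum, 5 genes took 57.7%, 10 genes took 72.8% and 100 genes took 90.3%. The 10 largest gainers together held 32.9%, 23.9% and 29.8% of summed FPKM at 222 days and 4.75%, 4.73% and 18.05% at 217 days. Replicate 3 at 217 days was the high library of its age, at a level between the other 217-day libraries and those of 222 days. Because the 10 were chosen by this gain, their share is a description and carries no test.

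**Figure D1:**
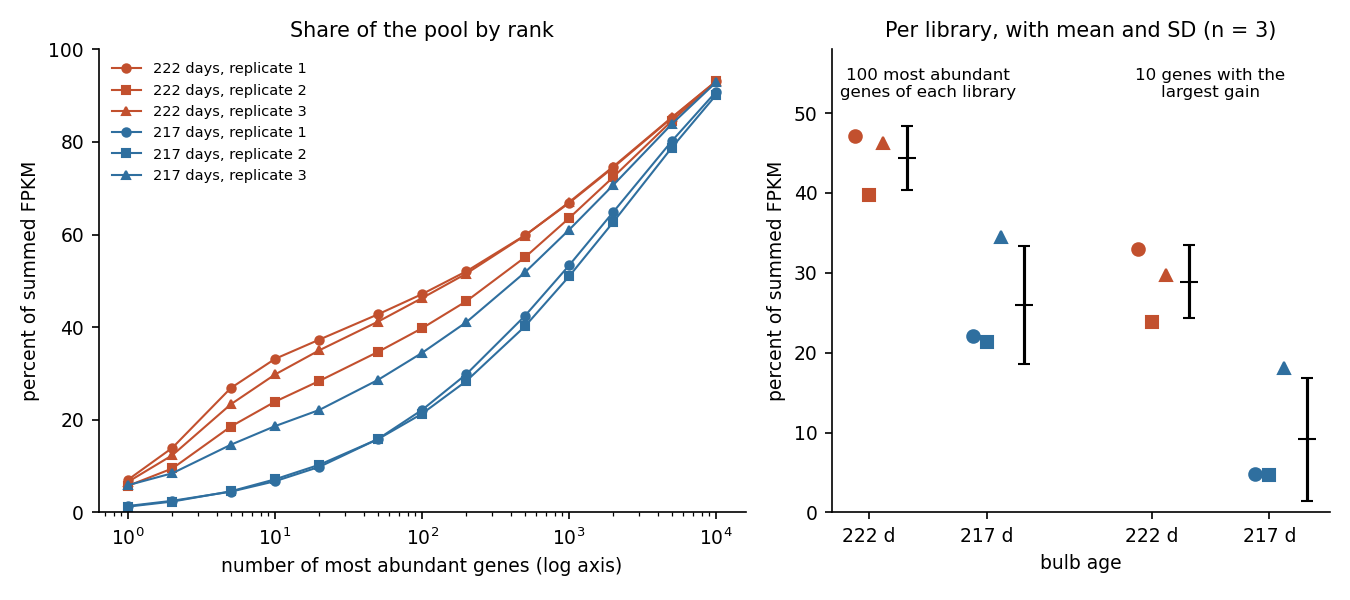
Left, percent of summed FPKM held by the most abundant genes of each library, by number of genes on a log axis. Right, the same percent per library, with the mean and SD (n = 3) at 222 and 217 days, for the 100 most abundant genes of each library and for the 10 genes with the largest gain in share. The 100 most abundant genes took 39.8% or more in each 222-day library and 34.5% or less in each 217-day library.

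The largest gainer had 82969, 45018 and 69372 FPKM at 222 days and 7789, 10047 and 29731 FPKM at 217 days. Its lowest 222-day library was above its highest 217-day library, and it was called higher with a log2 difference of 2.27 (limma, adjusted p = 0.0075). The gainer of rank 2 had 85338, 69249 and 79914 FPKM at 222 days and 12694, 12042 and 68213 FPKM at 217 days. Here replicate 3 at 217 days came close to the 222-day libraries, and the log2 difference of 1.83 was not called (limma, adjusted p = 0.128). Of the 10, 8 were called higher and 9 had no overlap between the ages, against 1.16% and 3.89% of all genes tested. The choice of the 10 by their gain favours both counts. The lists of the 100 most abundant genes in each mean profile shared 75 genes. Of the 100 at 222 days, 22 were called higher and 2 lower, and of the 100 at 217 days, 12 were called higher and 12 lower. Over all genes tested the shares were 1.16% higher and 3.22% lower. Reads of near-identical gene copies may be divided between IDs, so the level of a single abundant ID is uncertain.

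The number of genes with at least 1 FPKM was 26490, 26286 and 26282 at 222 days and 27573, 27611 and 25819 at 217 days. The ages overlapped, since replicate 3 at 217 days had the fewest of all 6. The means were 26353 ± 119 at 222 days and 27001 ± 1024 at 217 days (SD, n = 3 each), with an exact 2-sided permutation p of 0.4. The difference of -648 genes was -653 after all libraries were thinned to 12.8 M reads. It rested on single libraries: it was -362 without replicate 1, -343 without replicate 2 and -1239 without replicate 3 at 217 days.

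Gene by gene, 317 genes were higher at 222 than at 217 days, which is 1.16% of the genes tested, and 880 were lower, which is 3.22%. Together they were 1197 genes, or 4.38%. A call needed at least 1 on the log2 scale between the ages and a Benjamini-Hochberg adjusted p under 0.05 from limma, fitted to log2(FPKM + 1). The median log2 difference of all genes tested was -0.21. All 3 libraries at 222 days were above all 3 at 217 days for 1063 genes (3.89%), and below all 3 for 5656 genes (20.7%). This imbalance depended on the scaling. The counts were 2664 above and 2790 below with median-of-ratios scaling, and 2861 and 2609 with quantile normalization. Among called genes, 296 of the higher and 793 of the lower had no overlap. The calls rest on the spread shared by all 24 bulb libraries: a limma fit of the 6 libraries alone called 11 genes higher (0.0403%) and 2 lower (0.00732%), with 5127 genes at an unadjusted p below 0.05. The balance of the calls moved with the scaling. Median-of-ratios scaling shifted the median of all genes by 0.19 and gave 389 higher and 345 lower genes, so that 53.0% of the called genes were higher, against 26.5% with FPKM as deposited. Quantile normalization shifted it by 0.21 and gave 492 and 425 genes (53.7% higher). Rescaling to TPM moved the balance the other way, with 284 higher and 1210 lower genes (19.0% higher). No called gene changed its direction under any of the 3 other scalings. That was largely fixed beforehand, since a call needed at least 1 and the shifts of the median were much smaller.

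Single libraries also moved the counts. Without replicate 3 at 222 days, 142 genes were higher and 309 lower, and without replicate 2 at 222 days, 396 were higher and 1415 lower. Among the lower genes, replicate 3 at 222 days was the library farthest from the 217-day libraries for 522 of 880 (59.3%), and replicate 2 at 222 days was the nearest to them for 515 (58.5%). On the side of 217 days, replicate 2 was the farthest from 222 days for 441 of the lower genes (50.1%) and 150 of the 317 higher genes (47.3%). In the 3 other scalings and with each of the 6 libraries left out in turn, 108 higher genes (34.1% of the list) and 173 lower genes (19.7%) stayed called throughout.

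The lists differed in size of change and in abundance. The median log2 difference was 1.61 for the higher genes (quartiles 1.26 and 2.09) and -1.29 for the lower genes (quartiles -1.63 and -1.13). At least 2 on the log2 scale separated the ages for 93 higher and 104 lower genes, at least 3 for 27 and 9, and at least 4 for 4 and 1. The higher genes had a median of 21.7 FPKM at 222 days and 5.05 FPKM at 217 days, and the lower genes 6.48 FPKM at 222 days and 19.9 FPKM at 217 days. Means of at least 100 FPKM were reached by 79 higher genes at 222 days and 133 lower genes at 217 days. Behind the calls stood a median of 1059 summed reads for higher genes and 943 for lower genes over the 3 libraries of the age with more of them. Fewer than 100 reads stood behind 16 higher and 54 lower genes, whose changes are the least certain.

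The share of genes called was largest among the most abundant genes, in both directions. Of the 317 tested genes with a mean of at least 500 FPKM over the 24 bulb libraries, 5.05% were higher and 8.20% lower. Between 100 and 500 FPKM the shares were 2.07% and 5.68%, and between 5 and 20 FPKM they were 0.919% and 3.41%. Below 1 FPKM they were 1.75% and 3.06%, so the share of higher genes did not rise steadily with abundance. The 24 libraries include the 6 compared, so a gene's own change enters its class. The higher genes as a list held 28.9%, 22.2% and 27.5% of summed FPKM at 222 days and 4.84%, 4.49% and 13.0% at 217 days. The lower genes held 2.06%, 2.88% and 1.94% at 222 days and 6.34%, 6.33% and 6.29% at 217 days. Since the calls chose both lists, these shares describe their weight in the pool and test nothing.

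**Figure D2:**
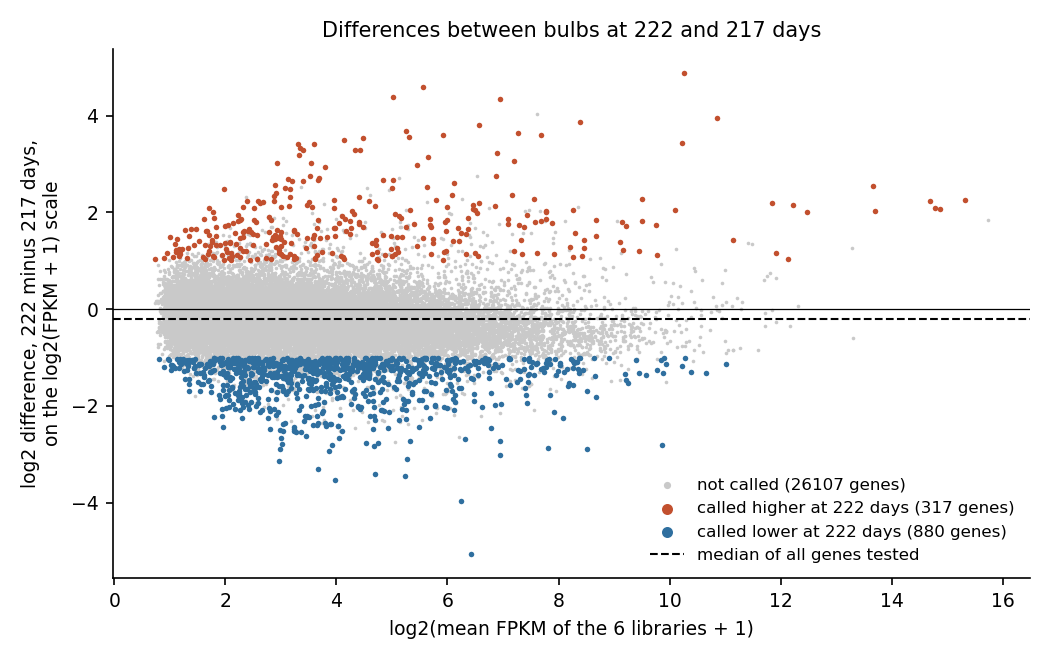
Log2 difference between bulbs at 222 and 217 days on the log2(FPKM + 1) scale (222 minus 217 days), against the log2 of the mean FPKM of the 6 libraries plus 1. Each point is a gene: 317 were called higher at 222 days and 880 lower, and the dashed line at -0.21 is the median of all genes tested. Differences of at least 3 were called for 27 higher and 9 lower genes.

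By the rule for named genes, the largest rises and falls without overlap and with a mean of at least 10 FPKM are described by ID. Choosing them by the change between 217 and 222 days favours unusual values at 217 days. Turns at that age are therefore descriptions and carry no test. Asa6G07840.1 had 873, 2845 and 3403 FPKM at 222 days and 110, 38.4 and 75.5 FPKM at 217 days. Every 222-day library was well above every 217-day library, which gave 4.88 ± 0.61 (SE) as the log2 difference, at an adjusted p of 0.000219 by limma. Its level along the bulb series was 15.4 ± 4.42 FPKM (SD, n = 3 at each age) at 192 days, 316 ± 100 FPKM at 212 days and 895 ± 429 FPKM at 227 days, so the 217-day mean was a dip between higher means at 212 and 222 days. Outside the bulb it was most abundant in flower, at 537 ± 205 FPKM, followed by pseudostem, at 274 ± 87.6 FPKM. In the fit of the 6 libraries alone its adjusted p was 0.0508 (limma).

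Asa8G00609.1 had 54.5, 102 and 113 FPKM at 222 days and 2.87, 1.71 and 3.48 FPKM at 217 days. Again the ages did not overlap. The log2 difference was 4.58 ± 0.33 (SE), with limma's adjusted p at 6.35e-07, and it was called under each of the 19 alternatives run for it. At 192 days it had 0, 3 and 1 reads in the 3 libraries. It averaged 9.37 ± 4.13 FPKM at 212 days and 59.6 ± 17.8 FPKM at 227 days. Its 217-day mean was a dip too, and flower, at 27.2 ± 9.61 FPKM, and pseudostem, at 8.35 ± 6.18 FPKM, were again the highest of the other tissues. The remaining tissues averaged 0.942 FPKM or less.

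Asa1G03611.1 had the largest fall, with 0.151, 4.67 and 3.36 FPKM at 222 days and 155, 329 and 19.4 FPKM at 217 days. Replicate 1 at 222 days held a single read of it. The 217-day libraries differed among themselves by more than 10 times, and the log2 difference was -5.06 ± 1.24 (SE, limma, adjusted p = 0.0136). The call was lost without replicate 1 at 222 days (adjusted p = 0.0636), without replicate 2 at 217 days (0.0628), in the fit of the 6 libraries alone (0.109) and with voom on the recovered reads (0.153), all by limma. It had 0 reads in the 3 libraries of 192 days, averaged 59.6 ± 49.6 FPKM at 212 days and 0.145 ± 0.251 FPKM at 227 days. Among the tissues it was most abundant in pseudostem, at 3753 ± 802 FPKM, then in leaf, at 1175 ± 288 FPKM, and in sprout, at 618 ± 269 FPKM. Root and flower had 0.328 ± 0.568 and 3.84 ± 3.22 FPKM.

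Asa5G04738.1 had 33.3, 7.82 and 0.544 FPKM at 222 days and 55.5, 185 and 166 FPKM at 217 days. The nearest pair across the ages was replicate 1 of each, and the log2 difference was -3.96 ± 0.88 (SE, limma, adjusted p = 0.00843). Without replicate 3 at 222 days, which had 7 reads, the log2 difference was -2.79 and the call was lost (limma, adjusted p = 0.0576), as it was in the fit of the 6 libraries alone (0.137). At 212 and 227 days it averaged 7.48 ± 2.85 and 33.7 ± 20.1 FPKM, so it stood highest in the bulb at 217 days. Root had the most of it, 1630 ± 189 FPKM, ahead of pseudostem at 733 ± 234 FPKM, leaf at 241 ± 74.4 FPKM and flower at 238 ± 44.1 FPKM.

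**Figure D3:**
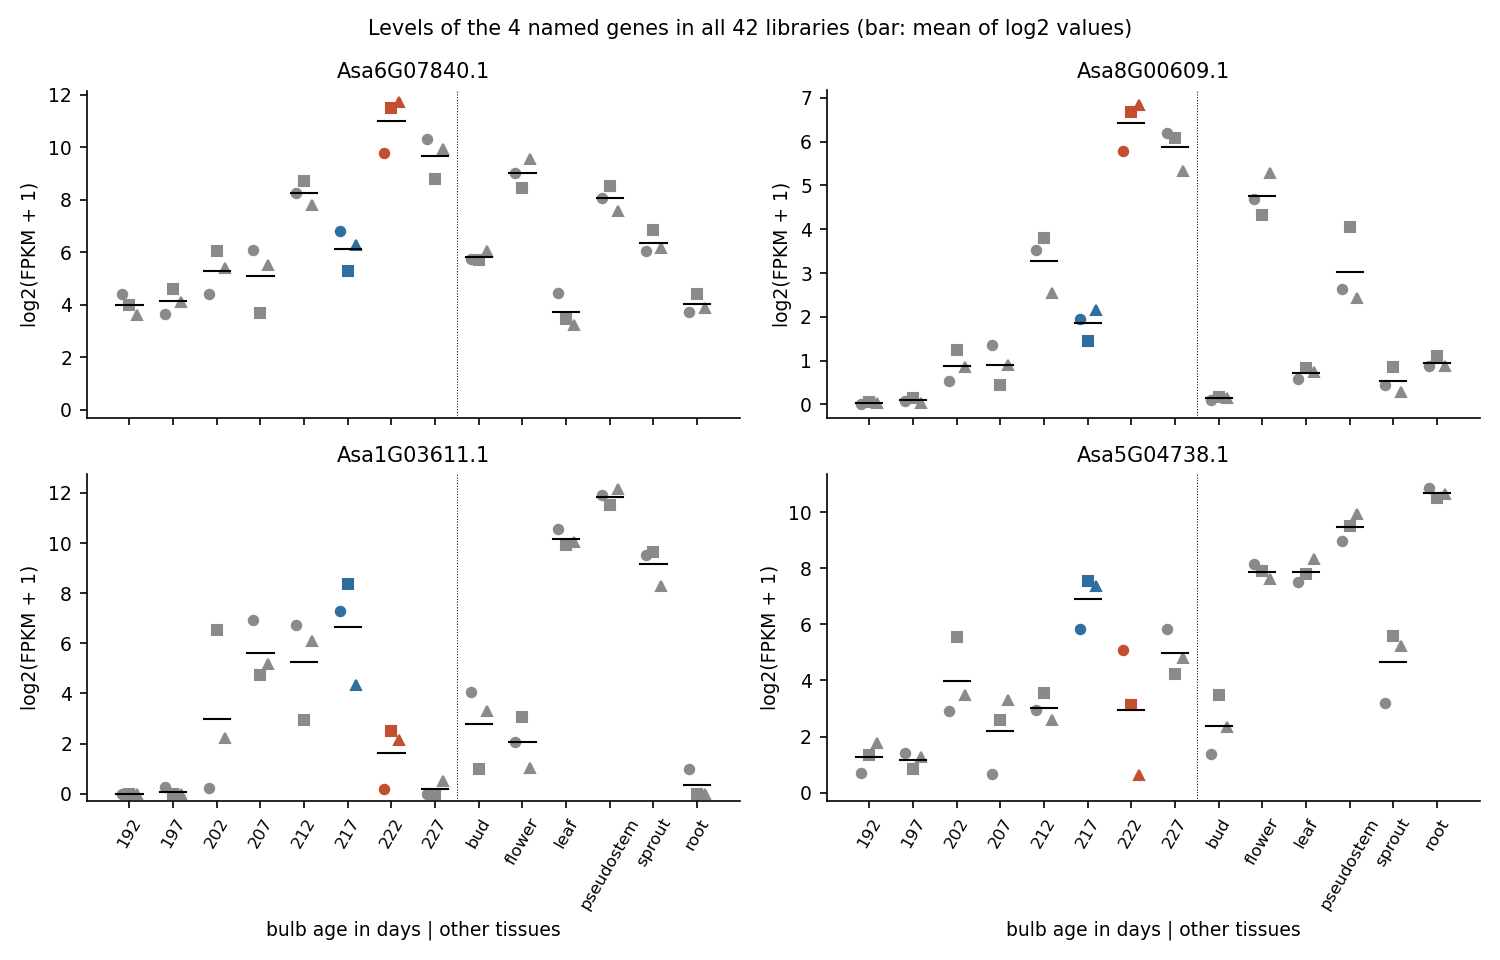
Levels of the 4 named genes as log2(FPKM + 1) in bulbs at 8 ages (days) and in 6 other tissues, with a point for each of the 3 libraries and a bar at the mean of the log2 values. Red points are 222-day bulbs and blue points 217-day bulbs. The upper pair lies higher at 222 days, with its highest tissue mean in flower, and the lower pair lies lower at 222 days, with its highest tissue means in pseudostem and root.

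The lists were then followed along the whole bulb series. The median level of the higher genes on the log2(FPKM + 1) scale was 1.39 at 192 days, 1.77 at 197, 2.37 at 202, 2.71 at 207, 3.68 at 212, 2.50 at 217, 4.37 at 222 and 3.84 at 227 days. The median of the lower genes was 3.83 at 192 days, 3.59 at 197, 3.88 at 202, 3.60 at 207, 3.24 at 212, 4.29 at 217, 2.79 at 222 and 2.96 at 227 days. In both lists the 217-day value lay outside the run of the neighbouring ages: the higher genes stood below their 212-day median and the lower genes above it. Choosing genes by the contrast of 222 with 217 days favours such a turn at those ages, so the medians of the other 6 ages are the ones that the choice did not use. Over all genes tested the medians lay between 2.95 and 3.29.

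**Figure D4:**
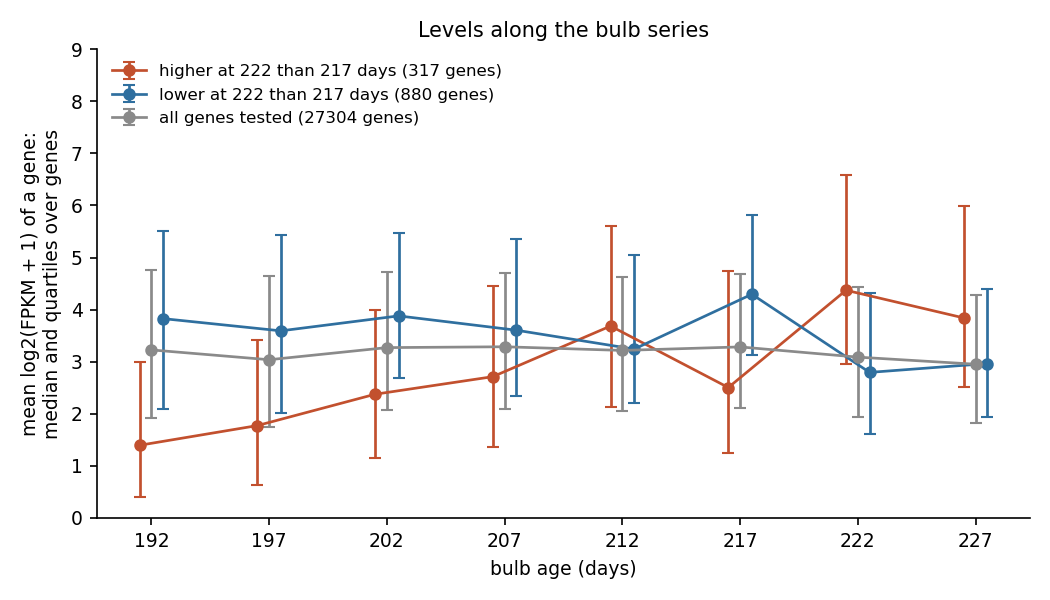
Median over genes of the mean log2(FPKM + 1), with bars from the lower to the upper quartile of genes, at the 8 bulb ages in days. The 317 genes higher at 222 than at 217 days had medians of 1.39 at 192 days, 2.50 at 217 days and 3.84 at 227 days, and the 880 lower genes were highest at 217 days.

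Bulbs at 227 and at 212 days, whose libraries were not among the 6, gave a comparison across the same point of the series. It came from the same limma fit, so these libraries entered the spread behind the calls. Genes of small spread are called more easily in both comparisons, which favours shared calls. Of the 317 higher genes, 71 were higher at 227 than at 212 days (22.4%) and 18 were lower (5.68%), against 1.64% and 9.03% of all genes tested (limma, same thresholds). Of the 880 lower genes, 188 were lower (21.4%) and 17 were higher (1.93%). The median log2 difference between 227 and 212 days was 0.42 for the higher list, -0.33 for the lower list and -0.26 over all genes tested. Most genes of both lists, 228 higher and 675 lower ones, were not called between 227 and 212 days.

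Replicate 2 of the 227-day bulbs stood apart (limma array weight 0.092, the lowest of the 24 bulb libraries). Without it 26.7% of the genes then called higher were also higher and 16.6% of those called lower were also lower, against 2.29% and 6.26% of all genes. Of the genes then called lower, 5.42% were higher at 227 than at 212 days, which is also above the 2.29% of all genes. For the original list of 880 lower genes, the median between 227 and 212 days without that library was -0.11. Over all genes it was -0.13, so the original lower list no longer lay below the rest. Under median-of-ratios scaling these medians were 0.69 for the higher list, -0.10 for the lower list and -0.02 for all genes. The limma fit that made the calls also gave the contrast of 212 with 192 days. There 207 of the higher genes were higher (65.3%, against 9.09% of all genes) and 3 were lower. Of the lower genes, 192 were lower (21.8%, against 8.95%) and 74 were higher (8.41%).

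The other tissues, none of which entered the calls, showed where the listed genes were most abundant outside the bulb. Flower had the highest mean of the 6 tissues for 167 of the 317 higher genes (52.7%), against 7.46% of all genes tested. Root had 14.5%, sprout 11.7% and leaf 10.7%, against 14.7%, 16.7% and 13.4% of all genes, so none of these was above its background. Bud had 5.68% of the higher genes, against 37.8% of all genes. Among the 880 lower genes as called, root had the highest mean for 305 (34.7%, against 14.7% of all genes) and pseudostem for 149 (16.9%, against 9.57%). Bud had 27.2% and flower 6.02% of the lower genes, both below the 37.8% and 7.46% of all genes. In median level the higher genes stood at 19.8 FPKM in flower, close to their 21.7 FPKM in 222-day bulbs, and at 3.76 to 6.85 FPKM in the 5 other tissues. The lower genes had medians of 23.3 FPKM in pseudostem and 21.7 FPKM in root, beside 6.48 FPKM in 222-day and 19.9 FPKM in 217-day bulbs.

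These shares held in part when the lists were made otherwise. Among the 108 higher genes that stayed called under other scalings and left-out libraries, 63.9% were highest in flower, and among the 173 such lower genes 34.1% were highest in root and 16.2% in pseudostem. With single libraries left out, the share highest in flower ran from 45.7% to 62.7% of the higher genes and the share highest in root from 23.7% to 40.9% of the lower genes. Bud took the place of root as the most frequent tissue of the lower genes under several choices: its share was 51.9% without replicate 2 at 217 days, 37.6% without replicate 2 and 32.04% without replicate 3 at 222 days, and 40.0% with array weights, against 23.7%, 27.3%, 30.1% and 26.1% for root. Bud was also the highest tissue for 37.8% of all genes tested. Of its shares here, 51.9% lay well above that, 40.0% slightly above, and 37.6% and 32.04% below. The bud share was 16.6% without replicate 1 at 217 days and 16.9% without replicate 1 at 222 days. The share of lower genes highest in pseudostem was 8.78% without replicate 2 at 217 days, which is below the share of all genes.

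**Figure D5:**
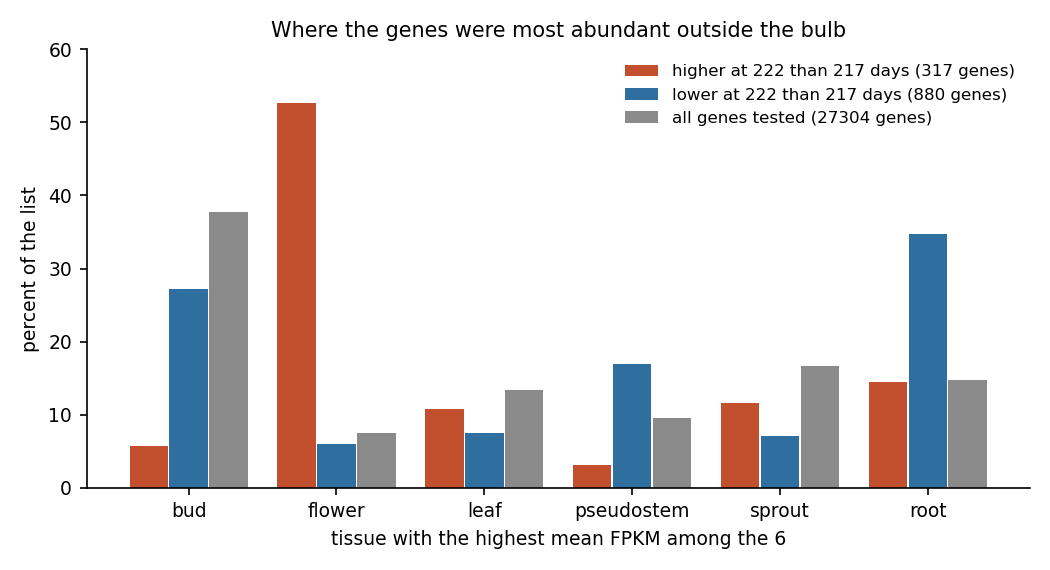
Percent of the genes higher at 222 than at 217 days (317), of the lower genes (880) and of all genes tested (27304) whose highest mean FPKM among 6 tissues outside the bulb was in bud, flower, leaf, pseudostem, sprout or root. Flower was the highest tissue for 52.7% of the higher genes and 7.46% of all genes, and root for 34.7% of the lower genes and 14.7% of all genes.

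Genes typical of 1 tissue were also defined without bulb libraries, as those with at least 20 FPKM in that tissue and at least 8 times the mean of each of the 5 others, counted as 0.1 FPKM where lower. This definition was made after values had been seen. It gave 100 flower genes, of which 84 were tested in the bulb. Of these, 28 were higher at 222 than at 217 days (33.3%, against 1.16% of all genes tested), 2 were lower (2.38%, against 3.22%) and 54 were not called, with a median log2 difference of 1.20, against -0.21 over all genes tested. The median stayed between 1.07 and 1.43 under the 3 other scalings. The count of higher genes was 13 when replicate 1 and 16 when replicate 3 of 222 days was left out. It was 13 when replicate 2 of 217 days was left out, and 1 in the fit of the 6 libraries alone.

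In summed level the 100 flower genes held 34.4%, 24.3% and 30.3% of the pool at 222 days and 5.06%, 5.31% and 18.9% at 217 days. The ages did not overlap, and replicate 3 at 217 days was the high library here too. Along the bulb series their share was 0.0848% ± 0.0175 (SD, n = 3 at each age) at 192 days, 0.281% ± 0.0261 at 197, 2.28% ± 0.486 at 202, 2.92% ± 1.73 at 207, 8.63% ± 0.999 at 212, 9.75% ± 7.91 at 217, 29.7% ± 5.07 at 222 and 33.5% ± 6.395 at 227 days. Flower itself held 25.9% ± 3.49, and in bud, leaf, pseudostem, sprout and root the mean share was 0.0978% or less. Of the 10 genes with the largest gain in share, 8 belonged to these 100, and the lowest flower mean among the 10 was 3747 FPKM.

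The 454 bud genes behaved otherwise. Of 392 tested, 39 were lower at 222 than at 217 days (9.95%, against 3.22% of all genes tested) and 1 was higher (0.255%, against 1.16%). Their median log2 difference was -0.74, and -0.54 with median-of-ratios scaling, -0.55 with quantile normalization and -0.80 with TPM. It was -0.26 without replicate 1 at 217 days, where the median of all genes was -0.17, and -0.46 without replicate 1 at 222 days. The bud genes held 0.468%, 1.27% and 0.815% of the pool at 222 days and 2.81%, 0.958% and 1.33% at 217 days. These values overlapped, and replicate 1 at 217 days had the largest. The set was chosen without bulb libraries, and young bulbs held as much of it as bud did. Its share was 9.27% ± 1.35 (SD, n = 3 in each group) at 192 days and 7.51% ± 0.416 at 197 days, beside 8.58% ± 0.711 in bud. By 212 days the share was 3.13% ± 0.324, and at 227 days 0.777% ± 0.0958. The count of lower bud genes was 8 when replicate 1, 128 when replicate 2 and 10 when replicate 3 of 222 days was left out. It was 6 when replicate 1 and 104 when replicate 2 of 217 days was left out, 12 with median-of-ratios scaling and 0 in the limma fit of the 6 libraries alone, in which 5127 of all genes had an unadjusted p below 0.05 and 2 were called lower. Its size thus depended on single libraries, on scaling and on the fit.

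Of the 359 root genes, 140 were tested, 12 of them were lower (8.57%, against 3.22% of all genes tested) and 1 was higher (0.714%, against 1.16%), and their median of -0.28 lay near that of all genes. Without replicate 3 at 222 days 2 were lower, and without replicate 2 at 217 days 3 were. Of the 25 pseudostem genes, 19 were tested, 4 were lower (21.1%, against 3.22%) and 0 higher, and without replicate 3 at 222 days or replicate 2 at 217 days none was lower. The pseudostem genes held 0.0301%, 0.0104% and 0.00971% of the pool at 222 days and 0.0161%, 0.0635% and 0.0245% at 217 days, which overlapped, with the most in replicate 2 at 217 days. That library was also the highest of the 6 for Asa1G03611.1, the gene with the largest fall. Genes with at least 20 FPKM in both leaf and pseudostem, and in both at least 8 times bud, root and flower, numbered 115. Sprout was not part of that rule, and the set held 3.34% of the pool there, beside 7.87% in leaf and 2.95% in pseudostem. Of the 115, 49 were tested, 3 were higher (6.12%, against 1.16%) and 4 lower (8.16%, against 3.22%). Their median was -0.01, and 0.13 with median-of-ratios scaling or quantile normalization. Few of the leaf and sprout genes reached the bulb: 7 of 27 leaf genes were tested and none was called, and 6 of 20 sprout genes were tested with 1 called higher.

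The threshold for entering the comparison left out few borderline genes. At least 1 FPKM was reached in exactly 3 of the 6 libraries by 1199 genes, which were tested, and in exactly 2 by 1303 genes, which were not, while 22883 genes reached it in all 6. Switches between presence and near absence were rare. At 222 days 16 genes had at least 1 FPKM in all 3 libraries while all 3 libraries at 217 days were under 0.5 FPKM, and 18 genes showed the opposite. Their highest means were 17.8 FPKM among those present at 222 days and 13.3 FPKM among those present at 217 days.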

How the data were processed

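The deposited table gives FPKM for each gene ID and library. The submitters' processing notes name Bowtie2 and RSEM. Their versions, the reference and the annotation were not given in the sources used here. Groups came from the labels, and 0 columns lacked a sample. FPKM is relative, so large gains of abundant genes lower the values of others. All 45750 genes above 0 gave whole reads within 0.001 counts. Genes above 0 in few libraries pass this check almost by construction. Of the 45750, 38950 were above 0 in at least 10 libraries, and all of those gave whole reads as well. These reads served for depth, thinning and an alternative fit with voom, since RSEM estimates need not be whole.

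Genes that reached 1 FPKM in 3 or more of the 6 libraries were tested with limma 3.58.1 in R 4.3.3 on log2(FPKM + 1), as group means over 24 bulb libraries with a variance trend and Benjamini-Hochberg adjustment over 27304 genes. This scale understates changes of genes near 1 FPKM. Single values were tested by exact permutation in Python 3.11.15. The fits were tested on simulated data. No 2 replicates agreed within sampling noise (chi-square per degree of freedom of at least 32.0).

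Named genes are the 2 largest rises and 2 largest falls among called genes without overlap that averaged 10 FPKM or more in the higher age. Lists by keyword could not be applied, since no table pairs IDs with names. Genes, lists and tests were chosen with earlier results of these data known. Alternatives were other pseudocounts, filters, scalings, weights, a replicate block and left-out libraries, and leaving out replicate 2 at 227 days was added after the data had been seen.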

Additional observations from a re-analysis of the deposited data

How the results depend on the processing

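Of 19 alternatives, 16 kept the count of genes higher at 222 days within 1.5 times of 317, and 13 kept the count of lower genes within 1.5 times of 880. Apart from left-out libraries, the exceptions for higher genes were 492 with quantile normalization and 11 in the fit of the 6 libraries alone. Those for lower genes were 345 with median-of-ratios scaling, 425 with quantile normalization and 1364 with array weights. The fit of the 6 libraries alone, with 2 lower genes, was a further one. Both counts also went beyond the limit without replicate 3 at 222 days, and the lower count did so without replicate 2 at 222 days. With each of the 6 libraries left out, the higher genes numbered 142 to 396 and the lower genes 309 to 1415. The low ends came without replicate 3 at 222 days and the high ends without replicate 2 at 222 days. The share of higher genes also higher at 227 than at 212 days ran from 17.2% to 36.6% with libraries left out, the highest without replicate 3 at 222 days. The share of lower genes also lower at 227 than at 212 days was 13.6% with quantile normalization, and ran from 12.7% without replicate 1 at 217 days to 38.4% without replicate 2 at 217 days. The share of lower genes also lower at 212 than at 192 days was 13.1% without replicate 1 at 222 days and 38.4% without replicate 2 at 217 days. With the replicate block, 298 genes were higher and 825 lower. Same-numbered libraries of the ages did not deviate together (correlations of -0.25, -0.31 and -0.14), while pairs with unlike numbers reached 0.37. Deviations from a mean of 3 libraries constrain each other, so these values cannot exclude a pairing. The labels do not say what the numbers mark. The difference in the share of the top 100 genes ran from 16.1 to 22.7 points with libraries left out. The excess of lower over higher genes turned round with median-of-ratios scaling (389 higher and 345 lower) and with quantile normalization (492 and 425). Rescaling to TPM enlarged it (284 higher and 1210 lower). The fit of the 6 libraries alone kept the same log2 differences and called only 11 higher and 2 lower genes. No called gene among the 317 and 880 changed the sign of its difference under the alternatives run. This carries little weight, since called differences were at least 1 and the median of all genes shifted by 0.21 at most. Several alternatives also left the log2 differences as they were. The causes of these differences were not tested. With 3 libraries an age, an exact permutation test cannot go below 0.1, and genes with few reads behind them are the least precise.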

Other observations

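Called genes often stood close together in the numbering of IDs. Of the 317 genes higher at 222 than at 217 days, 79 (24.9%) had another higher gene within 5 ID numbers, against 5.10% of all genes tested. Of the 880 lower genes, 263 (29.9%) had another lower gene within 5 numbers, against 14.2% of all genes tested. The table does not state whether the numbers follow position in the genome or whether near-identical copies share reads. By the first digit of the ID, from 0 to 8, the share of higher genes ran from 0.844% to 1.70% and that of lower genes from 2.77% to 3.81%.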
